A study of Mus musculus with 3 samples.

Results

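The tripartite motif (Trim) family was examined in the cytosolic RNA of macrophages: all 68 protein-coding genes whose symbol is Trim followed by a digit, of 55536 genes in the tables and 22015 protein-coding genes of the nuclear genome. Total RNA was sequenced from bone-marrow-derived macrophages (BMDM) of mouse strain C57BL/6J, phagocytes that are differentiated in culture from marrow precursors. The cells had received 100 ng/ml lipid A for 12 hours, were left without it for 12 hours, and received 100 ng/ml again for 60 minutes. Lipid A, the lipid anchor of bacterial lipopolysaccharide, activates the receptor Tlr4. All 3 libraries belonged to this group, each was made from 1 µg of ribosomal-RNA-depleted RNA, and cells without lipid A or with a single exposure were not analysed here. The values are therefore levels, not responses. Per the labels, the libraries come from different biosamples that share a donor entry, and neither sex nor age was recorded. Whether different animals were used is not stated. Tests over libraries therefore measure only the spread between these samples.

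TRIM proteins carry a RING finger, B-boxes and a coiled coil, and most act as ubiquitin ligases that attach ubiquitin chains to other proteins. The part after the coiled coil sets what each protein binds and divides the family into classes, of which the SPRY class is the largest. Many members take part in antiviral defence and in tuning the pathways downstream of Toll-like and cytosolic nucleic acid receptors, and a subset is transcribed in response to interferon in macrophages.

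The labelled cell type was checked against marker genes. All 8 macrophage markers stood above 1 TPM (a transcript level per length, scaled to a fixed total per library), led by Lyz2 at 3525 ± 672 TPM (SD, n = 3) and Cd68 at 637 ± 94.4 TPM. Of 8 neutrophil markers, S100a9 and S100a8 stood above 1 TPM, and the list summed to 7.95, 7.58 and 10.1 TPM in replicates 1, 2 and 3. T and NK cell markers summed to at most 0.18 TPM, B cell markers to at most 1.95 TPM and erythroid markers to at most 0.41 TPM in any library. Stromal and muscle markers summed to 0.1, 6.95 and 3.07 TPM in the same order. Expected counts on genes totalled 50807046, 53364168 and 46546422, so that 3 counts, the limit that a count of 0 allows, correspond to 0.059, 0.0562 and 0.0645 CPM (counts set to a common library total). 7SL RNA took 58.4%, 63.7% and 58.5% of TPM, and nuclear coding genes took 34.5%, 29% and 27.5%, so a messenger RNA has a higher TPM in replicate 1 at the same share of coding RNA.

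Promoter sequences are shown first for the members whose sequence holds the core of the interferon-stimulated response element, the site read by interferon-activated STAT and IRF factors, because these members include the highest of the family. The core was searched as GAAANNGAAA on both strands in a window from 250 bases before to 50 bases after each start in RefSeq (build GRCm38.p6), and 53 of the 68 members had an entry. It occurred in the window of 9 of these 53 members (17%), against 1079 of 27025 genes with an entry (3.99%). The 9 were Trim30a, Trim30d, Trim5, Trim12a, Trim12c, Trim34a, Trim21, Trim26 and Trim2. The first 3 are given by the 120 bases before the start, and the next 5 by 30 bases around the match, all 5′ to 3′ on the gene's strand. Capitals mark the match, which reads as its complement, TTTC, on most of these strands.
Trim30a, chr7:104465194-104465313, minus strand: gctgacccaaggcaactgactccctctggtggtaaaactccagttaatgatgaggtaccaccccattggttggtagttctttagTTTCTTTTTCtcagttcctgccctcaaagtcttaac
Trim30d, chr7:104507850-104507969, minus strand: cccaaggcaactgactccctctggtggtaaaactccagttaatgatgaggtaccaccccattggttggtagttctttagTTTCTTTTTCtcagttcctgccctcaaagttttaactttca
Trim5, chr7:104288107-104288226, minus strand: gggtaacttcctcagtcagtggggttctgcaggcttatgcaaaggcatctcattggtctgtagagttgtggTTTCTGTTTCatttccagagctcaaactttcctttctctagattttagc
Trim12a, chr7:104315466-104315495, minus strand: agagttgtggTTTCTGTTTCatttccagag
Trim12c, chr7:104353359-104353388, minus strand: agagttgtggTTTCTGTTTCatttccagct
Trim34a, chr7:104244457-104244486, plus strand: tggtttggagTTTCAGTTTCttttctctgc
Trim21, chr7:102565447-102565476, minus strand: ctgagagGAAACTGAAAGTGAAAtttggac
Trim26, chr17:36836979-36837008, plus strand: cttccgaTTTCACTTTCCTTTTCtcgggcc

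Counting the base before the start as -1, the match lay at -36 to -27 in Trim30a, at -41 to -32 in Trim30d, at -49 to -40 in Trim5 and at -29 to -20 in Trim12c. In Trim12a and Trim34a it lay just after the start, at 11 to 20. Trim21 and Trim26 each held a pair of overlapping matches, from 14 to 29 in Trim21 and from -160 to -145 in Trim26. Trim30a had a second start entry, inside the gene (window 104446076 to 104446375), where a match with the same letters lay at 3 to 12. The promoters of the near copies were themselves alike. Over the 250 bases before the start, Trim30a and Trim30d had 92.7% identity in 245 aligned bases, and Trim5 and Trim12c had 95.2% in 230. Trim12a had 100% identity with Trim5 in 191 aligned bases and 95.2% with Trim12c in 210. The matches within each of these 2 sets of near copies are therefore not independent of one another. Trim2, a member with NHL repeats, held the match at 29 to 38. A match describes the letters of the window and says nothing of binding.

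Among the members at a mean of at least 1 TPM, the motif was found in 8 of 23 with an entry (34.8%), and among those under 1 TPM in 1 of 30 (3.33%). In the chromosome 7 cluster described below it was found in 7 of 12 members (58.3%), and among the other members at 1 TPM or more in 1 of 14 (7.14%). The 12 include Trim68, Trim6 and Trim34b, which were under 1 TPM and held no match. At 1 TPM or more, 7 of 9 cluster members held the motif. Of the 13 members with an entry on a list of genes known to respond to interferon, 8 held it (61.5%). The 5 of these 13 with no match in the window were Trim25, Trim56, Trim30b, Trim30c and Trim34b. For Trim30b, the 120 bases before the start used were 104358647 to 104358766, inside the annotated gene (104355382 to 104369884, minus strand). Its window therefore does not cover the annotated 5′ end of the gene, and the missing match does not describe that end. The gamma-activated site, searched as TTCNNNGAA (a palindrome) in the same windows, was found in 6 of 53 members (11.3%), against 9.55% of all genes. It was present in Trim30c, at -62 to -54. A kappaB site was found in 5 of 53 members (9.43%), also against 9.55% of all genes, and those at 1 TPM or more were Trim13 and Trim28.

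The family ranged from genes with no count to Trim30a at 112 TPM. Of the 68 members, 54 had TPM above 0 in at least 1 library and could be tested, and 14 were listed at 0 in all libraries. By limma on log2(TPM + 1), fitted on 20685 genes with Benjamini-Hochberg adjustment, 29 of the 54 stood above 1 TPM (53.7%), against 44.5% of all genes tested and 61.0% of nuclear coding genes tested. A further 23 stood below 1 TPM (42.6%), against 50.4% of all genes tested and 33.8% of coding genes, and Trim47 and Trim39 could not be placed. Members listed at 0 were not tested, so these shares do not cover the whole family. The median over all 68 members was 0.563 TPM, and over all 22015 coding genes it was 0.137 TPM. The family held 674, 525.6 and 502.8 TPM in replicates 1, 2 and 3, or 0.186% ± 0.00757 (SD, n = 3) of the TPM of nuclear coding genes. In counts, it held 142129, 135850 and 117227. A few genes carried most of it: the 6 highest members held 58.5% ± 2.47 of the family's TPM (SD, n = 3).

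The levels are given by structural class, with no test between classes. Beside these counts, 44.5% of all genes tested and 61.0% of nuclear coding genes tested stood above 1 TPM. Those shares leave out genes listed at 0, which the class counts include. Members without a RING finger, whatever domain they end in, and those with a COS box were listed apart from the SPRY list. Its counts therefore do not cover every member with a SPRY domain. Of the 36 members on the SPRY list, 16 stood above 1 TPM, 15 below it, 2 could not be placed and 3 (Trim10, Trim50 and Trim60) were listed at 0. The 16 include Trim12a and Trim30b, placed in this class as relatives of Trim12c and Trim30a, whose longest annotated coding sequences are short (894 and 612 bases) and may lack the SPRY domain. Of 4 members with a PHD finger and a bromodomain, which act on chromatin, 3 stood above the level, and Trim66 was below it at 0.0133 TPM. Of 4 NHL repeat members, 2 were above, Trim2 was below at 0.507 TPM and Trim71, known from stem cells and embryos, was listed at 0. Of 5 members ending in another domain, 3 were above, led by Trim13 at 3.38 TPM, and Trim45 was lowest at 0.313 TPM. Of 5 members with no known C-terminal domain, Trim8 and Trim56 were above, while Trim31, Trim40 and Trim61 were listed at 0. Of 4 members without a RING finger, Trim14 and Trim44 were above, while Trim16 and Trim29 were below. Of 4 members with a COS box, a fibronectin repeat and a SPRY domain, Trim36 was above, Trim46 and Trim9 were below and Trim67 was listed at 0 with 1 count in replicate 3. The muscle RING finger genes Trim54, Trim55 and Trim63, and Trim42 in the same list, had no expected count in any library. Trim52 and Trim80, which are in none of these classes, were also listed at 0. Some zeros depended on the quantification. A second set of transcript tables, described below, gave means of 0.0675 TPM for Trim52 and 0.0109 TPM for Trim63. Means of Trim55, Trim67, Trim50 and Trim71 were at most 0.00208 TPM there, and the other members listed at 0 stayed at 0.

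**Figure D1:**
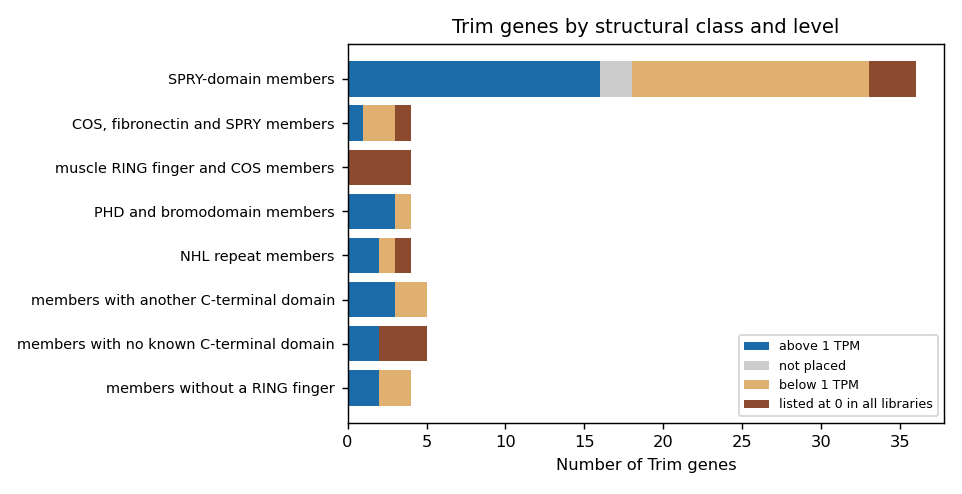
Number of Trim genes (x axis) in each structural class (rows), split by the limma call against 1 TPM or by a listing at 0 in all libraries. Of the 36 members on the SPRY list, 16 stood above 1 TPM, while the muscle RING finger list had none. Members without a RING finger are drawn apart, whatever domain they end in. Of all genes tested, 44.5% stood above 1 TPM, and of nuclear coding genes tested 61.0%, but genes listed at 0 were not tested. Trim52 and Trim80 belong to no class and are not drawn.

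The highest member was Trim30a, which in mice promotes loss of the adaptors Tab2 and Tab3 and so limits Toll-like receptor signalling. It had 144, 97.3 and 93.8 TPM in replicates 1, 2 and 3, ranked 423 among nuclear coding genes, and stood 5.79 ± 0.18 (SE) above the value at 1 TPM on the log2 scale (limma, adjusted p = 3.4e-08). Replicate 1 was above the other 2, which were close to each other. Trim30d, its neighbour on chromosome 7, followed at 74.9, 52.9 and 46 TPM. Trim30c had 49.8, 30.7 and 29.5 TPM, again highest in replicate 1. Trim30b was far lower, with 6.9, 2.73 and 4.56 TPM, and still above the level (log2 1.45 ± 0.22 SE, limma, adjusted p = 0.0015). Together these 4 genes held 36.8% ± 3.51 of the family's TPM (SD, n = 3). The pseudogene Trim30e-ps1 was listed at 0 in every library.

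Next came members that act on cytosolic nucleic acid sensing. Trim25, which attaches ubiquitin to the RNA sensor RIG-I, had 53.4, 46.5 and 40.2 TPM (chromosome 11, 88999376 to 89020293, mm10), with a mean of 46.7 ± 6.64 (SD, n = 3). Trim14, which works with the adaptor Mavs at mitochondria, had 52.1, 39.6 and 43.1 TPM (chromosome 4, 46493781 to 46536141). Trim25 was above Trim14 in 2 of 3 libraries, so their order lay within the spread. Trim56, which acts on the DNA sensing adaptor Sting, was lower at 5.61, 4.41 and 5.09 TPM. Trim65, which acts on the RNA sensor MDA5, had 3.5, 2.7 and 2.95 TPM. Both stood above 1 TPM, by 1.59 ± 0.09 and 1.01 ± 0.09 (SE) on the log2 scale (limma, adjusted p = 1.5e-06 and 1.8e-05).

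Trim21, the cytosolic antibody receptor that targets antibody-coated viruses, had 26.2, 16.3 and 16.8 TPM, with replicate 1 apart from the others. Trim12a, Trim12c and Trim5 are the mouse relatives of primate TRIM5, a factor that blocks retroviral capsids. Trim12a had 39, 37.6 and 31 TPM and Trim12c had 20.6, 14.8 and 14 TPM. Trim5 was much lower, at 2.5, 2.62 and 2.51 TPM, which are close to each other, while its counts gave 12.7, 15.4 and 15.5 CPM and varied beyond noise (chi-square, adjusted p = 0.00036). Trim34a, another interferon-responsive gene, had 27.6, 23.6 and 20.3 TPM. Its near copy Trim34b had 0.07, 0.07 and 0.12 TPM, below the level (log2 -0.88 ± 0.03 SE, limma, adjusted p = 2.3e-08). Of 14 members on the interferon list, Trim34b was the one below 1 TPM and the other 13 stood above it, beside 44.5% of all genes tested and 61.0% of nuclear coding genes tested.

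Members with broader roles filled the range between 10 and 30 TPM. Trim35 had 26.7, 27.2 and 24.2 TPM. Trim28, the corepressor that KRAB zinc finger proteins recruit to silence retroelements, had 23.3, 21.2 and 21.4 TPM (chromosome 7, 12999114 to 13031035, outside the cluster). Trim8, a regulator of Tak1 and Socs1, had 22.4, 17 and 20.4 TPM, lowest in replicate 2. Trim41 had 16.5, 15.5 and 16.6 TPM, and Trim27 had 11.1, 10.8 and 10.4 TPM. On counts all 5 of these genes varied beyond counting noise, with ratios of the highest to the lowest CPM of 1.18 in Trim35, 1.15 in Trim28, 1.25 in Trim8, 1.25 in Trim41 and 1.15 in Trim27 (chi-square, adjusted p from 1.4e-29 in Trim8 to 0.0026 in Trim27). Trim26, which acts on the transcription factor Irf3, had 22.9, 17.4 and 19.2 TPM. In all, 15 members had a mean of at least 10 TPM. Ordered by mean, the following neighbours kept their order in all 3 libraries: Trim30a over Trim30d, Trim30d over Trim25, Trim14 over Trim30c, Trim12a over Trim35, Trim28 over Trim8, Trim21 over Trim12c, and Trim41 over Trim27. The other neighbouring pairs changed order in at least 1 library, so their ranks were not separable at this spread.

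Below 10 TPM, the members formed a gradual series. Trim44 averaged 8.28 ± 0.57 TPM (SD, n = 3). The chromatin proteins Trim33 and Trim24, relatives of Trim28, averaged 4.8 ± 0.252 and 2.45 ± 0.22 TPM. Trim3, with NHL repeats, averaged 3.99 ± 0.321 TPM. Trim23, which carries an ARF-type GTPase domain, averaged 2.85 ± 0.68 TPM and Trim37, with a MATH domain, 2.79 ± 0.33 TPM. Trim32, mutated in a human limb-girdle muscular dystrophy, was the lowest NHL member above 1 TPM at 1.47 ± 0.13 TPM (log2 0.30 ± 0.08 SE, limma, adjusted p = 0.0071). Trim62 was the highest below the level at 0.76 ± 0.05 TPM. Trim38, which in human cells restrains Toll-like receptor signalling, had 0.01, 0.01 and 0 TPM on 2 counts in all, and Trim31, which in mice acts on Mavs, had no count. Trim38 and Trim31 were thus not detectable beyond the limit that 3 counts set.

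**Figure D2:**
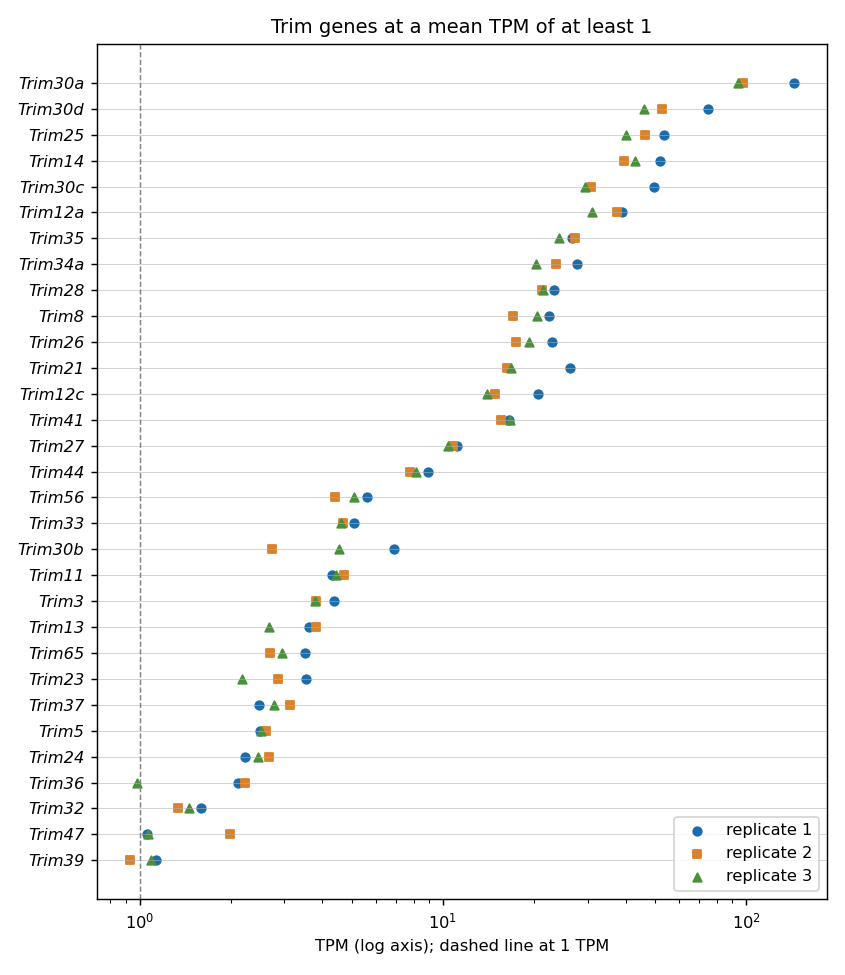
TPM (log x axis) of the 31 Trim genes with a mean of at least 1 TPM (rows, ordered by mean), 1 point for each of the 3 libraries; the dashed line marks 1 TPM. Trim30a lies between 93.8 and 144 TPM. Replicate 1 is the highest point for 22 of the 31 genes (71.0%), close to the 68.6% of coding genes in the same range.

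A cluster on chromosome 7 held 12 members and 54.4% ± 3.41 of the family's TPM (SD, n = 3). Trim21 (102557921 to 102565486) and Trim68 (102677582 to 102687327) lay apart from the other 10, which ran from Trim6 (104218793 to 104235152) to Trim30d (104470014 to 104507849, all mm10). Levels within the cluster differed widely between neighbours. Trim6, at one end, had 0.66, 0.2 and 0.76 TPM, and Trim34b, between Trim12a and Trim12c, averaged 0.0867 TPM, while Trim30a and Trim30d at the other end were the highest of the whole family. Trim68 was below the level at 0.62, 0.61 and 0.59 TPM.

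**Figure D3:**
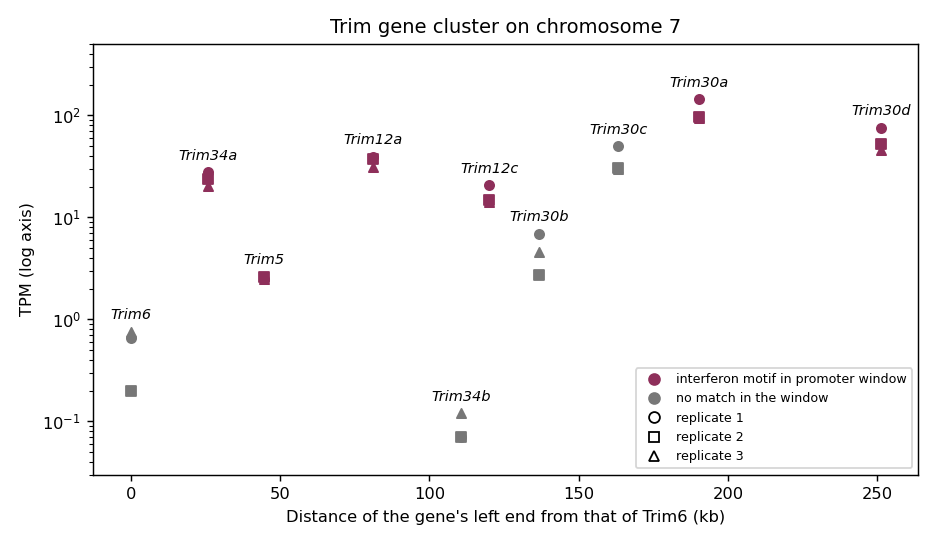
TPM (log y axis) of the 10 neighbouring Trim genes of chromosome 7 against the distance of each gene's left end from that of Trim6 (x axis, kb), with 1 point per library and colour showing whether the interferon motif is in the promoter window. Trim34b and Trim6 lie below 1 TPM and carry no match, Trim30a is the highest, and Trim30c is high without a match in the window. The window of Trim30b lies inside the annotated gene and does not cover its 5′ end.

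Reads from near copies limit how far some of these levels can be separated. Words of 50 bases from each gene's annotated transcripts were compared with all other genes. Trim34a shared 59.7% of its words with another gene (39.8% with Trim34b), and the coding sequences of Trim34a and Trim34b had 98.2% identity. Trim12c shared 33.7% and Trim5 shared 36.6%, mostly with each other, at 96.6% coding identity, so the split of reads between these 2 is uncertain. Trim14 shared 33.9%, of which 29.5% was with its neighbour Nans, a gene of sialic acid synthesis. Trim30a and Trim30d were better separated, sharing 5.98% and 7.49% at 90.2% coding identity, and Trim30c shared 0.66%. Trim12a shared 10.5%, and its coding sequence of 894 bases was shorter than the 1494 bases of Trim5 and Trim12c.

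The libraries differed for many members by more than counting noise. By a chi-square test of expected counts against library totals (2 degrees of freedom, adjusted over 13075 genes), 29 of the 41 members with at least 30 counts in sum varied (70.7%), against 69.3% of all genes tested and 71.5% of coding genes. This share was close to the background. The ratio of the highest to the lowest library in CPM had a median of 1.25 among these members and 1.22 among coding genes, and it reached 1.5 in 8 of 41 members (19.5%), against 24.4% of all genes and 19.0% of coding genes. Among members at 1 TPM or more, it passed 1.5 in Trim30b, Trim36 and Trim47. Trim30b had 33.2, 15.4 and 26.7 CPM (ratio 2.15, chi-square, adjusted p = 5.2e-73), with replicate 2 lowest. Trim36 had 11, 13 and 6.55 CPM (ratio 1.99, chi-square, adjusted p = 1.6e-22), with replicate 3 lowest. Its TPM was 2.11, 2.22 and 0.98, so replicate 3 itself was below 1 TPM. The fit over all 3 libraries called Trim36 above 1 TPM (log2 0.44, limma, adjusted p = 0.035). Fits without replicate 1 (log2 0.34) or without replicate 2 (log2 0.31) did not. Trim47 had 2.91, 6 and 3.46 CPM (ratio 2.06, chi-square, adjusted p = 1.1e-14), with replicate 2 highest. The 7 stromal and muscle markers also had their highest sum in replicate 2, at 6.95 TPM, with Col1a1 at 0, 2.53 and 1.28 TPM, and 3 of the 7 had a mean that could not be placed against 1 TPM, 3 were below it and Myh4 was listed at 0. Their part in the level of Trim47 was not tested, and in bulk RNA a change in the number of cells of a type and a change in RNA per cell cannot be told apart. Trim47 overlaps Trim65 on the same strand. Trim6 had the widest range of the cluster, with 2.76, 1.24 and 4.62 CPM (ratio 3.73, chi-square, adjusted p = 4.9e-22).

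Which library was highest depended on the scale for most members. By deposited TPM, 22 of the 31 members at 1 TPM or more were highest in replicate 1 (71.0%), 8 in replicate 2 (25.8%) and 1 in replicate 3 (3.23%), against 68.6%, 21.2% and 10.2% of coding genes in the same range. After TPM was rescaled over coding genes, the same counts were 7, 10 and 14 (22.6%, 32.3% and 45.2%), against 19.6%, 39.4% and 40.9% of coding genes. Across 4 scalings (deposited TPM, rescaled TPM, CPM with TMM factors, and the second set of tables), 6 members were highest in replicate 1 in every one (19.4%), against 13.1% of coding genes. These 6 were all 4 Trim30 genes, Trim12c and Trim21, each counted in the chromosome 7 cluster, although Trim21 lies apart from the others. A further 7 were highest in replicate 2 in every one (22.6%), against 17.9% of coding genes: Trim11, Trim13, Trim24, Trim35, Trim36, Trim37 and Trim47. None was highest in replicate 3 in every scaling, against 6.65% of coding genes. The remaining 18 members changed their highest library with the scale.

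Deviations from each gene's own mean, in CPM with TMM factors, show the size of the replicate 1 excess. The 9 cluster members at 1 TPM or more had a median log2 deviation of 0.28 in replicate 1, -0.09 in replicate 2 and -0.14 in replicate 3, and 7 of the 9 were highest in replicate 1. The other 22 members had medians of 0.00, -0.02 and 0.01, and 7, 8 and 7 of them were highest in replicates 1, 2 and 3. The 9174 coding genes in the same range had medians of 0.02, 0.01 and -0.03, and on this scale 36.9%, 36.6% and 26.5% of coding genes were highest in replicates 1, 2 and 3. The difference between the cluster and these genes was not tested. Trim30a was 1.34 times higher in its highest than in its lowest library on this scale, and Trim30c 1.48 times. Interferon-stimulated genes outside the family were also highest in replicate 1. The 11 such genes listed had median deviations of 0.50, -0.30 and -0.13. Among them, Ifit2 had 1330, 633 and 775 TPM and Irf7 had 944, 555 and 587 TPM. By deposited TPM all 11 were highest in replicate 1, as were 68.6% of coding genes at 1 TPM or more. Their summed level was 8081, 3985 and 4307 TPM, and that of the 14 interferon-list members was 525, 386 and 366 TPM. These sums are not corrected for the part of TPM held by nuclear coding genes, which was 34.5%, 29% and 27.5%. Whether these levels are linked was not tested.

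**Figure D4:**
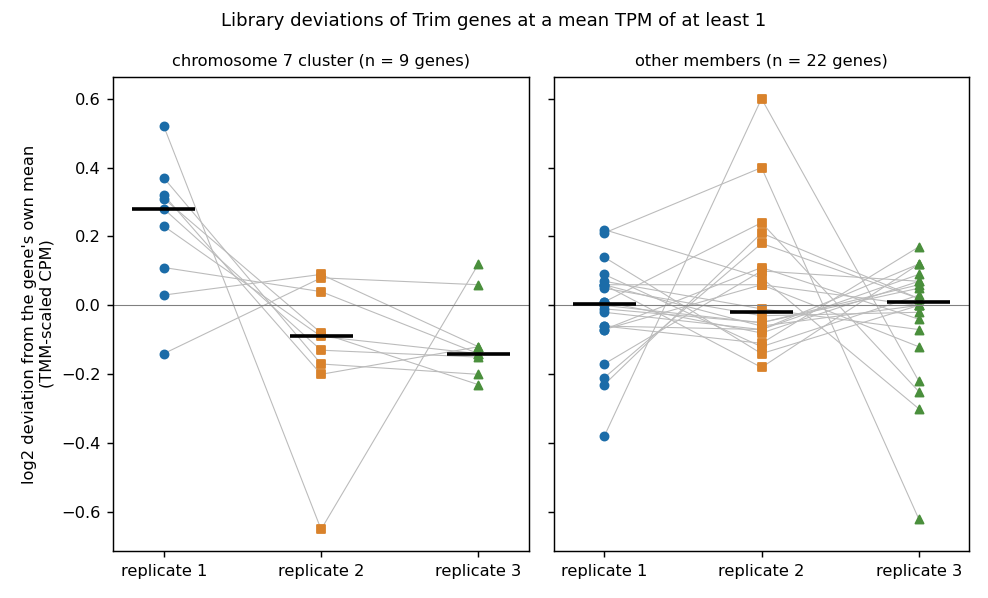
Log2 deviation of each Trim gene at 1 TPM or more from its own mean over libraries (y axis, TMM-scaled CPM) in each library (x axis); grey lines join a gene and black bars are medians. In the left panel, the 9 cluster members have a median of 0.28 in replicate 1, and in the right panel the other 22 have 0.00.

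Gene TPM did not always rest on coding transcripts alone. In the 31 members at 1 TPM or more, the share of a gene's TPM was followed over its annotated transcripts. TPM is a level per length, so these are not shares of reads. A transcript shorter than the others of its gene holds a smaller share of reads than of TPM. Trim30a-201, its coding transcript, held 99.9% ± 0.136 of the gene's TPM (SD, n = 3), and coding transcripts held all of Trim25, Trim30c, Trim34a, Trim12c and Trim41. Trim30d was divided between the coding transcripts Trim30d-202, at 57.7% ± 2.28, and Trim30d-201, at 42.2% ± 2.24.

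Trim30b and Trim28 were different. In Trim30b, the retained-intron transcript Trim30b-202 (3514 bases) held 87.2%, 89% and 82.2% of TPM in replicates 1, 2 and 3, and coding transcripts held 12.5% ± 3.27 (SD, n = 3). The coding transcripts of Trim30b stood at 0.75, 0.28 and 0.74 TPM, which placed it last of the 31 members on that measure. In Trim28, the retained-intron transcript Trim28-203 (565 bases) held 44.7%, 39.4% and 42.7%, and the coding transcript Trim28-201 (3245 bases) held 38.3%, 35.1% and 40%. Because Trim28-203 is far shorter, Trim28-201 held more of the reads, relative to it, than these shares of TPM show. The coding part of Trim28 was 8.92, 7.43 and 8.57 TPM. In the second set of tables, retained-intron transcripts held 86% of Trim30b. Those of Trim28 held 26.8% there, against 44.9% in the first set, and the order of its leading transcripts was the other way round, with Trim28-201 at 46.2% and Trim28-203 at 26.2%. A retained-intron share of 25% or more was found in these 2 of 13 members with such a transcript (15.4%), against 378 of 5785 coding genes at 1 TPM or more (6.53%). The median share was 2.53% among the members and 0.945% among the coding genes. Nuclear RNA markers were highest in replicate 3, with Malat1 at 112, 90.6 and 452 TPM. In that replicate the share of Trim30b-202 was at its lowest, and that of Trim28-203 lay between its values in the other replicates. The part of nuclear RNA in these shares was not tested.

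Processed transcripts, which have no annotated reading frame, weighed in other members. Trim12a-206 (562 bases) held 42.4%, 47.5% and 44.6% of Trim12a, so that the coding part of Trim12a averaged 19.1 ± 2.47 TPM (SD, n = 3), against 35.9 ± 4.25 TPM for the gene. Trim12a-206 is shorter than the coding transcripts of Trim12a, so its share of reads was smaller than its share of TPM. Trim14-204 held 20.7%, 4.75% and 16.8% of Trim14, lowest in replicate 2, and the coding part of Trim14 was 39.2, 35.9 and 33.3 TPM. In the second set of tables Trim14-204 held 19% ± 1.45 (SD, n = 3), so its low share in replicate 2 depended on the quantification. Trim26-209 held 30.5% ± 5.67 of Trim26, but 8.16% in the second set of tables, so its share depended on the quantification. Ranked by coding transcripts alone, the leading 5 members were Trim30a, Trim30d, Trim25, Trim30c and Trim14.

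**Figure D5:**
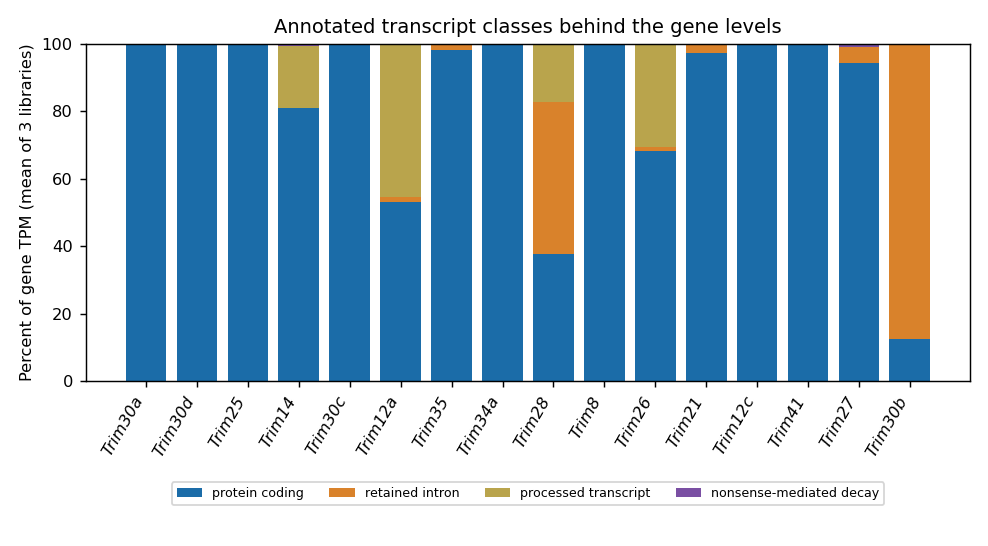
Percent of each gene's TPM (y axis, mean of 3 libraries) held by the annotated transcript classes, for the 15 Trim genes at 10 TPM or more and Trim30b (x axis). Coding transcripts hold 99.9% of Trim30a, but 37.8% of Trim28 and 12.5% of Trim30b.

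Genes of the proteins that members work with were set against the same level, which 61.0% of nuclear coding genes tested and 44.5% of all genes tested exceeded. Of the 4 family members known by other names, Pml, the organiser of nuclear bodies, averaged 30.2 ± 6.66 TPM (SD, n = 3) and Mid1, a microtubule-bound ligase, 17.7 ± 8.33 TPM. Mefv, which encodes the inflammasome protein pyrin, averaged 7.96 ± 2.31 TPM, and Mid2 was below 1 TPM at 0.00667. Of 14 measured signalling proteins on which members act, all stood above 1 TPM, with Irf7 at 695 ± 216 TPM, the RIG-I gene Ddx58 at 100 ± 25.4 TPM and Tab3, a partner of Trim30a, lowest at 2.75 ± 0.33 TPM. All 10 genes listed as partners of Trim28 stood above it, led by Mdm2 at 63.1 ± 15.8 TPM and Cbx3 at 17 ± 2.09 TPM. The KRAB zinc finger gene Zfp809 was lowest among the 10 at 3.92 ± 0.548 TPM. All 9 ubiquitin-conjugating enzymes, which hand ubiquitin to RING ligases, stood above 1 TPM, from Ube2d1 at 6.59 ± 1.61 TPM to Ube2d3 at 139 ± 23.1 TPM.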

How the data were processed

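Expected counts and TPM per gene and transcript were deposited by the authors for each library, on build mm10 with GENCODE M21 per the submitters' processing notes and the deposited text. A second set of transcript tables, with estimated counts and TPM of its own per the file headers, was summed to genes. No source used here names the aligner, the quantification tools or the strand setting, so reads of overlapping genes on opposite strands cannot be told apart. TPM covers all RNA in a library, so 7SL RNA lowers the TPM of every messenger RNA. Bounds of TPM deposited by the authors, per the file headers, were kept as a score without a stated interval level and are not printed. Count limits cover counting error only.

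Symbols and biotypes came from the transcript tables and coordinates from the GENCODE annotation. The level test was limma 3.58.1 (R 4.3.3) on log2(TPM + 1), with an intercept-only model against 1 TPM, a mean-variance trend and robust moderation, over the 20685 genes that had any TPM in some library. The pseudocount of 1 compresses low values. Library differences were tested by chi-square after rounding expected counts to whole numbers, where a gene had 30 or more counts over all libraries. Both tests used Benjamini-Hochberg adjustment over all genes tested and a threshold of 0.05, and both were tested on simulated data. Alternatives used edgeR 4.0.16 (TMM) and DESeq2 1.42.0 (size factors). Sequences were read with Biopython 1.88, and pandas 2.3.3, numpy 2.4.6, scipy 1.17.1 and matplotlib 3.10.9 were used.

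Members and lists were chosen with earlier results of these data known. Named members had a mean of at least 10 TPM, lay in the chromosome 7 cluster, had at least 1 TPM and a called ratio of at least 1.5 between libraries, or were the highest or lowest measured of a list. Other members are named by a role. Of the other genes, the 2 highest and the lowest of a list were named. Trim4 and Mb21d1 were listed under symbols that the tables used here do not hold.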

Additional observations from a re-analysis of the deposited data

How the results depend on the processing

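The number of members above 1 TPM was 29 and stayed within 1.5 times of that under a pseudocount of 0.1, a minimum mean count of 10, the second tables (23) and rescaled TPM (36), and it was 16 at a level of 5 TPM. The number below 1 TPM was 23, and it was 10 with a mean count of at least 10, where fewer low genes are tested, and 14 with rescaled TPM. Leaving out 1 replicate gave 28 to 29 above, 20 to 21 below and 21 to 24 varying beyond noise, where all libraries gave 29. Members highest in replicate 1 numbered 22 by TPM, 7 by rescaled TPM, 14 with TMM factors and 8 in the second tables. For replicate 2 the second tables gave 20, and for replicate 3 rescaled TPM gave 14, TMM 7 and the second set of tables gave 3. Against 1 TPM, the log2 level changed sign in the second tables for Trim47 (-0.34) and Trim36 (-0.12), and with rescaled TPM for Trim2 (0.42), Trim45 (0.03), Trim68 (0.59) and Trim6 (0.40), since rescaling raises every coding gene. The second tables had a median of 0.461 times the TPM of the gene tables (0.378 to 0.566) for members at 1 TPM or more, so 1 TPM is stricter there, and Trim5 was then at log2 0.10 and no longer placed above it. Without replicate 1, Trim6 (log2 -0.46) was no longer placed below it. The share of the leading transcript moved by more than its SD over libraries in 17 of 22 named members with the second tables, and the leading transcript of Trim28 was no longer Trim28-203 (26.2%) there. Depth limits statements on the 14 members listed at 0. No paired analysis was possible because the study has a single group. The smallest p that an exact sign-flip test over 3 libraries can give is 0.25, so single genes were given no such test.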
